A study of Mus musculus with 72 samples.

Results

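Transcripts of 8 genes that encode receptors and surface or marker proteins of neutrophils were followed in 36 tumours grown from 4T1 cells, a mouse mammary carcinoma line of BALB/c origin. The genes were chosen by name, with earlier results of these data known: Fpr1, Fpr2, Cxcr2, Csf3r, Itgam, S100a8, Il1r2 and Ceacam1. They are 8 of the 1224 genes measured, and all 8 passed the filter on low counts. Counts of calls among them, set below beside the shares of all tested genes, are therefore a description and not a test. Each tumour came from 1 female BALB/c mouse aged 6 to 12 weeks, and each of the 4 groups held 9 mice. Control mice received an isotype antibody (400 µg). BA mice received bintrafusp alfa (492 µg; M7824 in the labels), an antibody to PD-L1 joined to a TGF-β trap made from a TGF-β receptor. RT mice were irradiated and also received the isotype antibody, and BA+RT mice received bintrafusp alfa and radiation. The labels name no allele beyond the strain. All mice, controls included, carried tumour cells placed in the thigh muscle on day -6, were treated on day 0 and were killed on day 6. The labels call the tissue orthotopic although the thigh is the stated site, and for the radiation dose the sources at hand give no value.

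Neutrophils leave the bone marrow under the control of granulocyte colony-stimulating factor and of chemokines that act on CXCR2, and then follow formylated peptides and other end-target attractants through the formyl peptide receptors. On the way they bind to endothelium and matrix through the integrin Mac-1, whose α chain is encoded by Itgam. None of the 8 genes is confined to neutrophils: monocytes and macrophages also carry Itgam and formyl peptide receptors, and Ceacam1 is also made by epithelial and endothelial cells and by activated lymphocytes. In whole-tumour RNA, fewer cells of a type and less RNA per cell cannot be told apart.

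Each gene was read through 1 short amplicon, a stretch of 95 to 105 bases that lay in coding sequence for all 8 genes. Coordinates are on GRCm38 and sequences come from the GENCODE M21 transcripts. The 4 amplicons printed here belong to the genes that rose against control in at least 1 treated group, and capitals mark bases that differ from the most similar other transcript.

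Fpr2 (chr17:17893544-17893638, plus strand, exon 2 of 2): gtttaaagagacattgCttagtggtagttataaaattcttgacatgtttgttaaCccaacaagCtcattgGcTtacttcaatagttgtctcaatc
Ceacam1 (chr7:25476421-25476525, minus strand, exon 2 of 9): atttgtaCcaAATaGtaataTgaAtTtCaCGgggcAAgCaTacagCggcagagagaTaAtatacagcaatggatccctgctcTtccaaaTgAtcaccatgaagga
Itgam (chr7:128081663-128081757, plus strand, exon 8 of 30): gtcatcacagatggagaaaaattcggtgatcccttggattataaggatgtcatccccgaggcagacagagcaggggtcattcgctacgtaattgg
Fpr1 (chr17:17877182-17877276, minus strand, exon 2 of 2, printed without capitals): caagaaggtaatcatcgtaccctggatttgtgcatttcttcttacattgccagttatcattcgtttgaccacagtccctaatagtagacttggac

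The Fpr2 amplicon shared 90 of 95 bases with Gm5966, a processed pseudogene on the same chromosome, so counts for Fpr2 could include reads from that copy if it is transcribed. Csf3r had a similar partner, with 95 of 100 bases identical to the processed pseudogene AC105061.2. The Itgam amplicon has no capitals because Gm49368, an annotated gene that spans the same locus, holds the identical 95 bases, and the 2 cannot be told apart. Ceacam1 differed from its paralogue Ceacam2 at 21 of 105 bases. The closest other transcript matched 41.1% of the Fpr1 amplicon and less of those of Cxcr2, S100a8 and Il1r2.

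The 250 bases before the start of each gene (RefSeq, GRCm38.p6, 8 of 8 genes matched) were searched on both strands for the letters of 4 motifs. The letters GAGGAA, the core bound by the myeloid factor PU.1, occurred in 6 of the 8 promoters, against 23.3% of 32851 promoters of the same length. TTCNNNGAA, bound by STAT factors, occurred in 2 of 8 (Fpr2 and Il1r2) against 7.02%. TTGCNNAA, a C/EBP form, and a match to the interferon-stimulated response element ISRE occurred in 0 of 8, against 9.56% and 2.98% of all promoters. The PU.1 letters were absent from the promoters of Fpr1 and Il1r2. Fpr1 also rose with BA, and its promoter held the letters of none of the 4 motifs. Cxcr2, Csf3r, S100a8 and Ceacam1 had the PU.1 letters, and none of them was called with BA in the test below. The promoters of Fpr2 and Itgam, which both rose with BA, are printed with these letters in capitals as examples.

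Fpr2 promoter (chr17:17887574-17887823, plus strand): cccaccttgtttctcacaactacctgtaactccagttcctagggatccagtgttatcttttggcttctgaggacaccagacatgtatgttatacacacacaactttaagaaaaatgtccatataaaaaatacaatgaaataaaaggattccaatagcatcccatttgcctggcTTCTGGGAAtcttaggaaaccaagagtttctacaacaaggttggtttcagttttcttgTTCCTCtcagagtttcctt
Itgam promoter (chr7:128062390-128062639, plus strand): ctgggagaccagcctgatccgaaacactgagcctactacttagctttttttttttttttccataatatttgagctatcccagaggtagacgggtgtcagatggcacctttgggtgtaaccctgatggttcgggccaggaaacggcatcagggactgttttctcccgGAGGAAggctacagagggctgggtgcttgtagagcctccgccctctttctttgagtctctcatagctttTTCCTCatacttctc

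In the Fpr2 promoter the first capitals are the STAT letters and the second are the PU.1 letters read on the minus strand. Itgam has the PU.1 letters at 2 places, 84 and 15 bases before the start. A match of letters describes these windows only and was not tested as a binding site.

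Levels are given as CPM, counts scaled to the panel's normalised library size, and can be compared between groups for 1 gene, not between genes, because amplicons differ in yield. Of the genes described here, 7 were read on panel 1, with 959532 to 2616197 counts per library, and S100a8 on panel 2, with 314621 to 841046. The median panel 1 library held 1362126 counts in BA and 1902836 in RT, so the irradiated groups were read more deeply. Fpr1 rested on as few as 11 counts in 1 control tumour, Cxcr2 on 21 to 87 per tumour, and Itgam and S100a8 on more than 400. The labelled tissue held the leukocyte gene Ptprc at 523 to 1050 CPM in every tumour, and the epithelial gene Epcam at 7356 to 23435 counts.

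**Figure D1:**
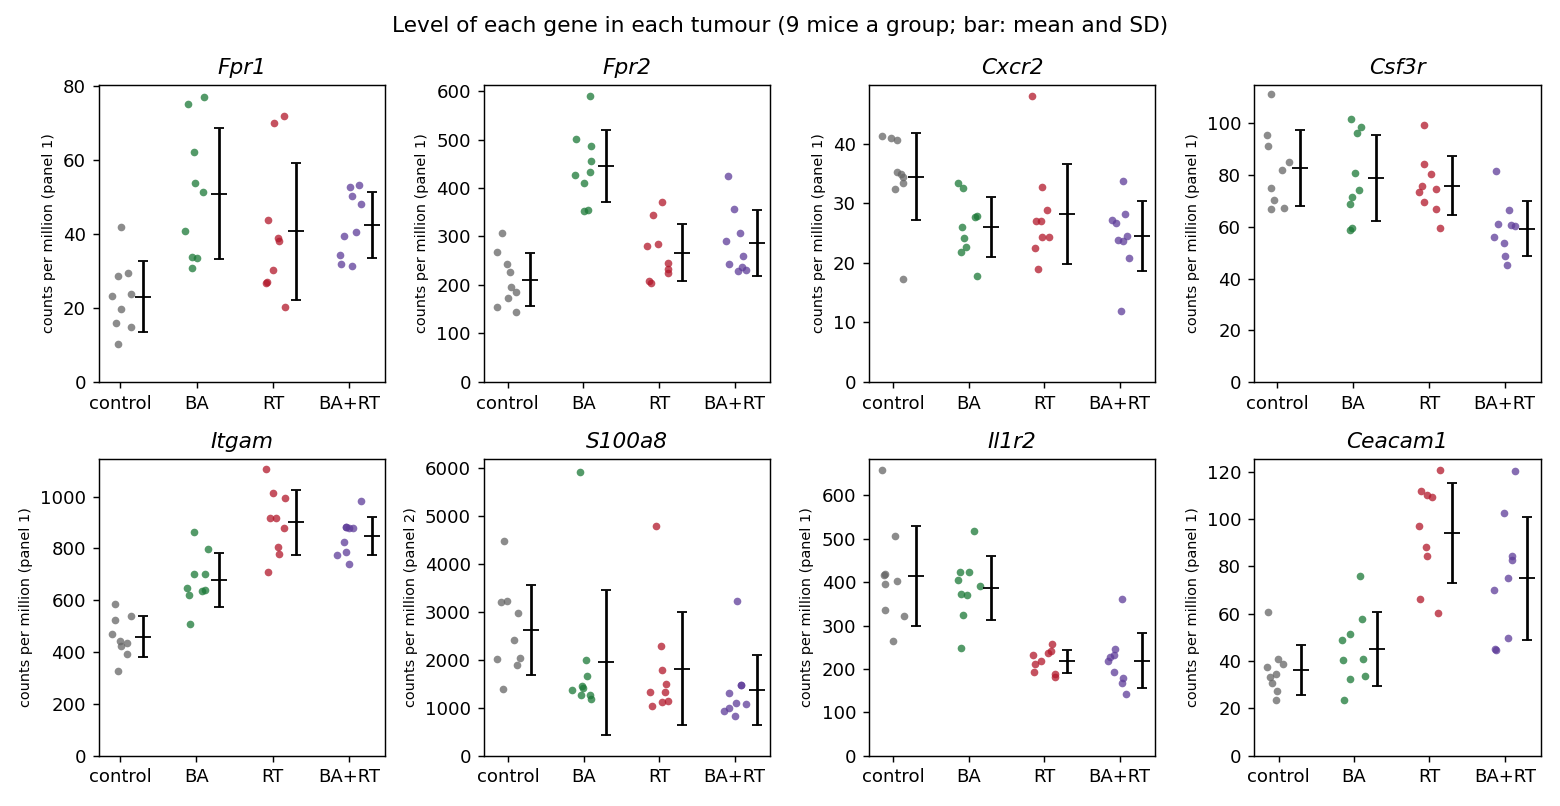
Level (CPM) of each of the 8 genes (vertical axes, linear from 0) in each tumour of the 4 groups (horizontal axis); points are mice, and the bar beside them is the mean with its SD over 9 mice. Fpr2 in BA (352 to 590) lies above every control tumour (144 to 306), while 1 tumour stands far above its group for S100a8 in each treated group.

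Tumours treated with BA alone had higher Fpr1, Fpr2 and Itgam than control tumours, and none of the other 5 genes passed the test. These 3 calls of 8 stand beside 27%, 12.5% higher and 14.5% lower, of the 1038 tested genes called in that comparison. A gene is called here when its adjusted p (edgeR quasi-likelihood test, Benjamini-Hochberg over the 1038 genes) is below 0.05. The median log2 fold change was 0.12 over the 8 genes and 0.002 over all tested genes.

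With RT alone, Ceacam1, Itgam and Fpr1 rose and Il1r2 fell, 4 calls of 8 beside 41.6% of tested genes (20.5% higher and 21.1% lower). With BA+RT all 8 were called against control, beside 47.6% of tested genes (23.4% higher and 24.2% lower): Ceacam1, Itgam, Fpr1 and Fpr2 rose, and Il1r2, S100a8, Cxcr2 and Csf3r fell. The median log2 fold change of the 8 was 0.11 with RT and -0.02 with BA+RT. These 3 comparisons share the same 9 control tumours.

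**Figure D2:**
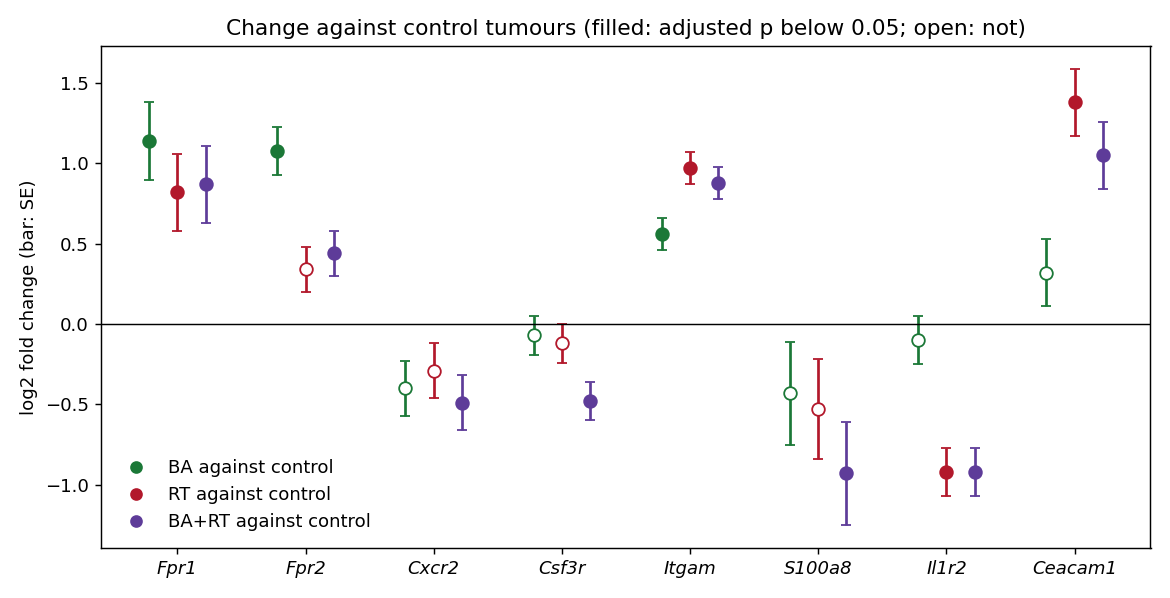
Log2 fold change against control (vertical axis; bar: SE) of the 8 genes (horizontal axis) with BA, RT and BA+RT, 9 mice a group; filled points have an adjusted p below 0.05 and open points do not. With BA the highest points are Fpr1 (1.14) and Fpr2 (1.08), and with RT the highest is Ceacam1 (1.38). With BA+RT all 8 points are filled, 4 above and 4 below 0.

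Fpr1 and Fpr2 encode formyl peptide receptors, G protein-coupled receptors for bacterial and mitochondrial formylated peptides; the Fpr2 product also binds annexin A1 and serum amyloid A. Fpr2 had 144, 195 and 306 CPM (lowest, median and highest tumour) in control, 352, 433 and 590 in BA, 204, 246 and 370 in RT and 228, 259 and 425 in BA+RT. Every BA tumour was above every control tumour, whereas the RT and BA+RT ranges overlapped control. Groups did not overlap for 1 of the 8 genes in BA against control, beside 2.79% of tested genes. Fpr2 was 2.11-fold higher with BA than in control (log2 fold change 1.08, SE 0.15, adjusted p = 1.14e-06) and 1.36-fold higher with BA+RT (0.44, SE 0.14, adjusted p = 0.0109). With RT alone its difference was 0.34 (SE 0.14, adjusted p = 0.0569), with 7 of 9 tumours above the control mean. That value was called when RT mouse 20 or 22 or control mouse 1 or 8 was left out (adjusted p 0.0239 to 0.201 over the 18 leave-outs), and under factors from the sum of the panel's reference genes (0.53, adjusted p = 0.00828).

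Fpr1 had 10.3, 23.3 and 41.8 CPM in control, 30.9, 51.2 and 77.0 in BA, 20.2, 38.1 and 71.8 in RT and 31.4, 40.4 and 53.3 in BA+RT. Each treated group overlapped control, and 5 of 9 BA tumours were above all control tumours. The gene was 2.20-fold higher with BA (log2 fold change 1.14, SE 0.24, adjusted p = 6.07e-04), 1.77-fold higher with RT (0.82, SE 0.24, adjusted p = 0.00652) and 1.83-fold higher with BA+RT (0.87, SE 0.24, adjusted p = 0.00352). Across mice, with group means removed, Fpr1 and Fpr2 went together more closely than any other of the 28 pairs. Their Pearson r was 0.61 and Spearman rho 0.61 over 36 mice (permutation p = 2e-04, adjusted p = 0.0056, and p = 2.9e-04, adjusted p = 0.00812), and r was 0.68 without the 2 mice farthest from the median of Fpr1. Within groups r was 0.64 in control, 0.49 in BA, 0.67 in RT and 0.68 in BA+RT.

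Cxcr2 encodes the receptor for the neutrophil-attracting CXC chemokines, and Csf3r the receptor for granulocyte colony-stimulating factor. Cxcr2 had 17.2, 34.9 and 41.3 CPM in control, 17.7, 26 and 33.4 in BA, 19, 27.1 and 48.1 in RT and 12.0, 24.5 and 33.7 in BA+RT. The highest RT tumour, of mouse 22, was above every control tumour, and the lowest control tumour, of mouse 8, was below every RT tumour. Cxcr2 fell with BA+RT by 0.49 on the log2 scale (SE 0.17, adjusted p = 0.0171), and this call was lost under the reference genes (-0.35, adjusted p = 0.0555). Its differences of -0.40 with BA (adjusted p = 0.0794) and -0.29 with RT (adjusted p = 0.178) were not called. Without control mouse 8 they were -0.50 (adjusted p = 0.0157; 0.0157 to 0.147 over the 18 leave-outs) and -0.41 (adjusted p = 0.0336; 0.0334 to 0.307), and without RT mouse 22 the second was -0.42 (adjusted p = 0.0334).

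Csf3r had 67, 81.9 and 112 CPM in control, 58.7, 74.3 and 102 in BA, 59.6, 74.6 and 99.5 in RT and 45.2, 60.4 and 81.7 in BA+RT. BA+RT was the lowest group, with 8 of 9 tumours below every control tumour. Csf3r fell with BA+RT by 0.48 (SE 0.12, adjusted p = 0.00189), a 1.40-fold lower level. The differences with BA (-0.07, 95% interval -0.32 to 0.18) and RT (-0.12, 95% interval -0.38 to 0.13) were not called.

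Itgam, the α chain of Mac-1, binds fibrinogen, complement fragments and ICAM-1 together with the β chain encoded by Itgb2. Its levels were 327, 443 and 584 CPM in control, 509, 646 and 864 in BA, 708, 917 and 1110 in RT and 739, 880 and 983 in BA+RT. Every RT and every BA+RT tumour was above every control tumour, and 8 of 9 BA tumours were. Itgam rose 1.48-fold with BA (log2 fold change 0.56, SE 0.10, adjusted p = 3.59e-05), 1.96-fold with RT (0.97, SE 0.10, adjusted p = 5.58e-10) and 1.84-fold with BA+RT (0.88, SE 0.10, adjusted p = 3.86e-09). Groups did not overlap for 2 of the 8 genes in RT against control, beside 7.61% of tested genes, and for 1 in BA+RT against control, beside 7.23%. Itgb2 also rose in all 3 comparisons, by 0.64, 0.47 and 0.34 (adjusted p = 1.26e-06, 3.99e-05 and 0.00151).

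Ceacam1 encodes an adhesion receptor with inhibitory motifs in its long-tailed form. It had 23.6, 34.5 and 60.6 CPM in control, 23.6, 40.9 and 75.8 in BA, 60.3, 97.0 and 121 in RT and 44.7, 75 and 120 in BA+RT. In RT 8 of 9 tumours and in BA+RT 6 of 9 were above every control tumour, while BA overlapped control widely. Ceacam1 rose 2.60-fold with RT (log2 fold change 1.38, SE 0.21, adjusted p = 1.81e-06) and 2.07-fold with BA+RT (1.05, SE 0.21, adjusted p = 7.94e-05). With BA alone the difference was 0.32 (95% interval -0.11 to 0.74, adjusted p = 0.273). Itgam and Ceacam1 were correlated over the 36 mice (r 0.54, permutation p = 7.1e-04, adjusted p = 0.00994), but by rank the adjusted p was 0.0691 (rho 0.44, p = 0.00987). Without the 2 mice farthest from the median of Itgam the r was 0.42. Within groups the r of Itgam and Ceacam1 was 0.31 in control, 0.73 in BA, 0.85 in RT and 0.40 in BA+RT.

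Il1r2 encodes the decoy receptor for interleukin 1, which binds the cytokine without signalling. Its amplicon lies in 1 of 3 annotated coding transcripts, so the values are those of that transcript, whereas the other 7 amplicons lie in all coding transcripts of their genes. It had 265, 403 and 659 CPM in control, 249, 392 and 517 in BA, 182, 219 and 258 in RT and 142, 218 and 361 in BA+RT. Every RT tumour was below every control tumour, and 8 of 9 BA+RT tumours were. Il1r2 was 1.90-fold lower with RT (log2 fold change -0.92, SE 0.15, adjusted p = 5.37e-06) and 1.89-fold lower with BA+RT (-0.92, SE 0.15, adjusted p = 5.05e-06). With BA it differed by -0.10 (95% interval -0.40 to 0.20).

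S100a8 encodes 1 subunit of calprotectin, an abundant calcium-binding protein of the neutrophil cytosol that monocytes also make. It had 1390, 2410 and 4470 CPM in control, 1170, 1410 and 5920 in BA, 1040, 1320 and 4780 in RT and 830, 1100 and 3230 in BA+RT. In each treated group 8 of 9 tumours were below the control mean and the remaining tumour (BA mouse 13, RT mouse 22, BA+RT mouse 45) was above it. S100a8 fell with BA+RT by 0.93 (SE 0.32, adjusted p = 0.0155), and by 1.19 without mouse 45 (adjusted p = 0.00196). With BA the difference was -0.43 (SE 0.32, adjusted p = 0.334), and without mouse 13 it was -0.85 (adjusted p = 0.0201; 0.0201 to 0.511 over the 18 leave-outs). With RT it was -0.53 (SE 0.31, adjusted p = 0.181), and without mouse 22 it was -0.86 (adjusted p = 0.0161; 0.0161 to 0.310). RT mouse 22 also had the highest Cxcr2, Csf3r and Il1r2 and the lowest Itgam and Ceacam1 of its group, and without it 7 of the 8 genes were called in RT against control in place of 4.

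Dependence of the BA change on radiation was tested as the BA change in irradiated tumours (BA+RT against RT) minus that in unirradiated tumours (BA against control). Fpr1, Fpr2 and Itgam rose with BA in unirradiated tumours, and their changes in irradiated tumours were 0.05, 0.10 and -0.09, none of them called. The difference between the changes was -0.98 for Fpr2 (SE 0.20, adjusted p = 0.00259), -0.65 for Itgam (SE 0.13, adjusted p = 0.00259) and -1.09 for Fpr1 (SE 0.34, adjusted p = 0.0397). These 3 of 8 calls, all lower, stand beside 8.29% of tested genes called in either direction and 4.91% called lower. Because the 8 genes were chosen with earlier results of these data known, this is not a test of an excess. The calls for Fpr2 and Itgam held in all 36 fits that left out 1 mouse (adjusted p 8.45e-04 to 0.0078 and 0.001 to 0.00902). The call for Fpr1 was lost in 19 of those 36 fits (adjusted p 0.0168 to 0.0764) and on the deposited log2 values (-0.46, adjusted p = 0.0666). Ceacam1 differed by -0.65 (SE 0.29, adjusted p = 0.165), and the remaining 4 genes by -0.29 to 0.20, without a call.

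**Figure D3:**
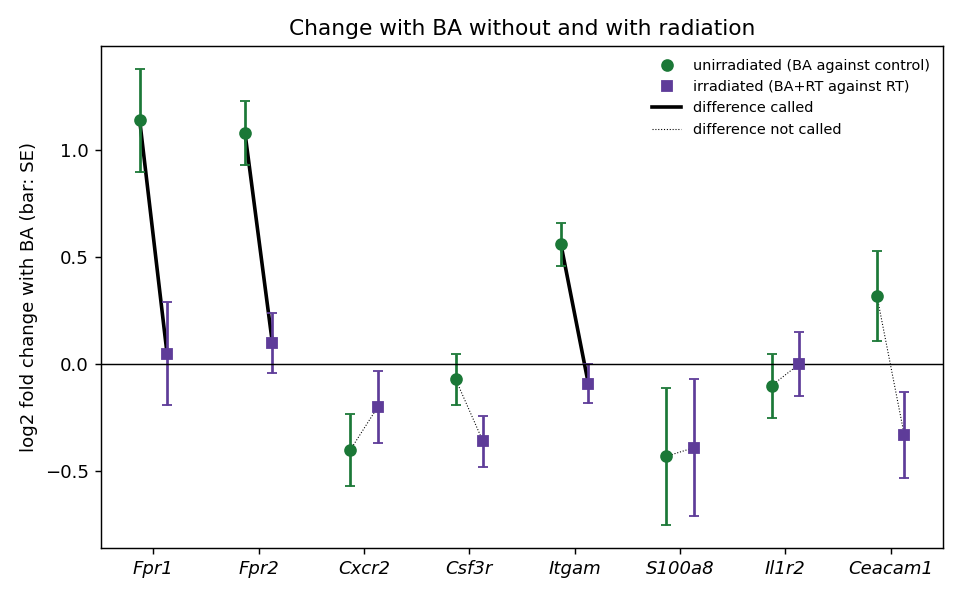
Log2 fold change with BA (vertical axis; bar: SE) for each gene (horizontal axis) in unirradiated tumours (circles, BA against control) and irradiated tumours (squares, BA+RT against RT), 9 mice a group; solid lines join pairs whose difference was called and dotted lines those whose difference was not. Fpr1, Fpr2 and Itgam go from 1.14, 1.08 and 0.56 to 0.05, 0.10 and -0.09.

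Adding BA to RT gave 0 of 8 calls by edgeR, beside 10.8% of tested genes, and 1 of 8 had an unadjusted p below 0.05. On the deposited log2 values limma also called 0. That gene was Csf3r, named after its value was seen, at -0.36 (SE 0.12, p = 0.00702, adjusted p = 0.0572). DESeq2 called it, at -0.33 (adjusted p = 0.0496), as did edgeR with factors from the reference genes (-0.39, adjusted p = 0.0308). It was also called without BA+RT mouse 45 (-0.41, adjusted p = 0.019) or RT mouse 25 (-0.39, adjusted p = 0.04), within 0.019 to 0.122 over the 18 leave-outs.

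Adding RT to BA gave 5 of 8 calls, beside 53.5% of tested genes (27.1% higher and 26.4% lower). Ceacam1 rose by 0.73 (SE 0.20, adjusted p = 0.00304) and Itgam by 0.32 (SE 0.10, adjusted p = 0.0052). Il1r2 fell by 0.82 (SE 0.15, adjusted p = 2.27e-05), Fpr2 by 0.64 (SE 0.14, adjusted p = 3.68e-04) and Csf3r by 0.41 (SE 0.12, adjusted p = 0.00609). The Csf3r call was lost under the reference genes (-0.27, adjusted p = 0.0565). S100a8, at -0.50 (adjusted p = 0.186), was called without BA+RT mouse 45 (-0.76, adjusted p = 0.038).

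Between the single treatments, BA against RT, 4 of 8 genes were called beside 53.8% of tested genes (25.5% higher and 28.2% lower). Fpr2 was 1.67-fold (log2 0.74, SE 0.14, adjusted p = 4.66e-05) and Il1r2 1.77-fold (0.83, SE 0.15, adjusted p = 1.72e-05) higher in BA. Ceacam1 was 2.09-fold (-1.06, SE 0.20, adjusted p = 4.36e-05) and Itgam 1.33-fold (-0.41, SE 0.10, adjusted p = 4.61e-04) lower in BA.

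The 8 genes did not vary as 1 block from mouse to mouse. With group means removed, 16 of the 28 pairs had a positive r, the median r was 0.13, and 4 pairs were called, all positive. Besides the 2 pairs given, Cxcr2 went with S100a8 (r 0.50, permutation p = 0.00301, adjusted p = 0.0267, and rho 0.49, p = 0.00328, adjusted p = 0.0459). Without the 2 mice farthest from the median of Cxcr2 the r was 0.43. These mice were picked on Cxcr2 alone, so tumours far out for S100a8 were not left out for that. Within groups the r of Cxcr2 and S100a8 was 0.54, 0.24, 0.77 and 0.45 in control, BA, RT and BA+RT. Cxcr2 also went with Il1r2 (r 0.51, permutation p = 0.00382, adjusted p = 0.0267), but by rank the adjusted p was 0.126 (rho 0.39, p = 0.0226). Without the same 2 mice the r was 0.38. Within groups the r of Cxcr2 and Il1r2 was 0.56, 0.63, 0.71 and 0.37.

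**Figure D4:**
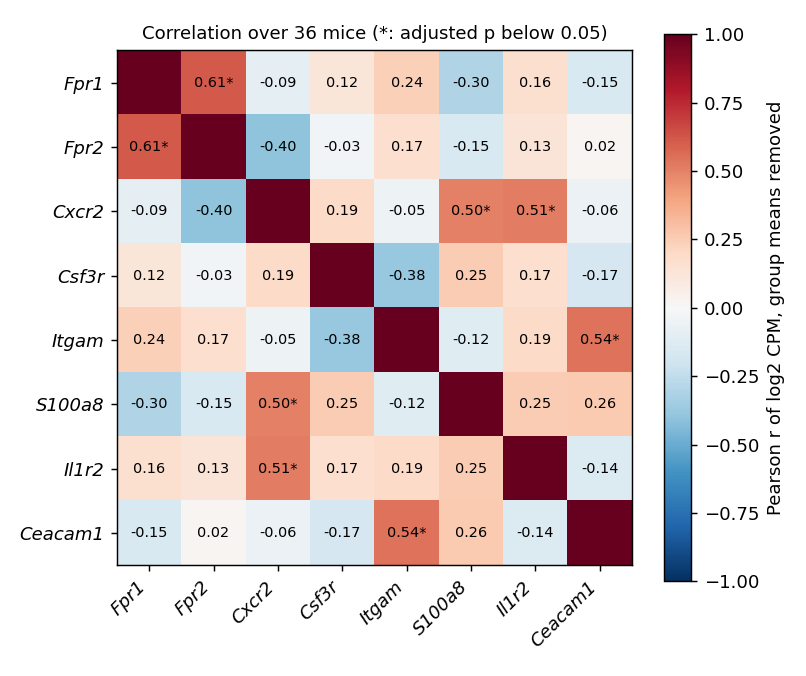
Pearson r between each pair of the 8 genes (both axes) over 36 mice, on log2 CPM with group means removed; colour and number give r, and a star marks an adjusted p below 0.05 by permutation over the 28 pairs. Fpr1 with Fpr2 (0.61) is the highest of the 4 starred pairs, and Fpr2 with Cxcr2 (-0.40) is the lowest value and carries no star.

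For each gene the tested genes of its panel with the most similar values over the 36 mice, group means removed, were listed by Pearson r, as a description. The closest to Fpr2 were Cd86 (0.68), Cd69 (0.665) and Itga4 (0.647), and to Fpr1 they were Creb1 (0.662), Cd72 (0.658) and Lamp2 (0.63). Ceacam1 was closest to Rrad (0.762), Cd80 (0.722) and Slc39a14 (0.686), and Itgam to Hal (0.664), Emp3 (0.579) and Cd68 (0.574). Cxcr2 was closest to Nap1l4 (0.612), Thap3 (0.605) and Emp1 (0.601), and Il1r2 to Rgs1 (0.627), Emp1 (0.597) and Lnpep (0.582). The closest to Csf3r were Jak1 (0.583), Ptpn1 (0.525) and Gdpd5 (0.508). These were picked from 793 genes of panel 1, and the values of all of them share library and depth. On panel 2, with 243 genes, S100a8 was closest to Bhlhe40 (0.557), Plau (0.544) and Fos (0.526). By rank these 3 had a lower rho of 0.459, 0.339 and 0.375, and Emp3 with Itgam had 0.403. For scale, the 95th percentile of r over the genes compared was 0.36 (Itgam) to 0.579 (Ceacam1) on panel 1 and 0.381 for S100a8.

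Among ligands and partners of these receptors, 11 genes were tested: 2 rose and 2 fell with BA, 7 rose and 2 fell with RT, and 6 rose and 3 fell with BA+RT. Over all tested genes 12.5% rose and 14.5% fell with BA, 20.5% rose and 21.1% fell with RT, and in BA+RT the shares were 23.4% and 24.2%. The median log2 fold changes were -0.28, 0.55 and 0.34, against 0.002, -0.01 and 0.009 over all tested genes. Among the CXCR2 ligands, Cxcl3 rose with RT by 1.84 (adjusted p = 5.28e-05), Ppbp by 1.08 (adjusted p = 0.00509), Cxcl5 by 0.97 (adjusted p = 0.00528) and Cxcl1 by 0.55 (adjusted p = 0.00225). Cxcl2 was not called (0.15), and with BA the same 5 ligands had values of -0.71 to -0.22 without a call. Icam1, a Mac-1 ligand, rose with RT by 0.88 (adjusted p = 4e-06). Havcr2, listed as a Ceacam1 partner, rose by 0.58 with RT (adjusted p = 8.31e-05).

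Of the interleukin 1 genes, Il1a fell with BA by 1.05 (adjusted p = 2.86e-05). Il1r1, the signalling receptor beside the decoy Il1r2, rose with BA by 0.26 (adjusted p = 0.0245) and fell with RT by 0.58 (adjusted p = 1.86e-06). Its co-receptor Il1rap fell with BA and with RT by 0.28 (adjusted p = 0.00153 and 8.31e-04). Il1b, Cxcl15 and the second CXC receptor gene Cxcr1 had too few counts to be tested. The interaction was called for 2 of the 11 ligand and partner genes, Itgb2 (-0.77, adjusted p = 1.59e-04) and Havcr2 (-0.54, adjusted p = 0.0294). Both were lower, beside 8.29% of tested genes called in either direction and 4.91% called lower.

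Of 5 tested genes of neutrophil granules and the oxidase, 3 rose and 1 fell with BA, 0 were called with RT and 1 fell with BA+RT, beside 27%, 41.6% and 47.6% of all tested genes called in either direction. Prtn3, a granule serine protease, rose with BA by 1.74 (adjusted p = 7.16e-07) and Cybb, a subunit of the oxidase, by 0.36 (adjusted p = 0.04). Ctsg, another protease, had 41 to 111 counts per tumour in BA and 0 to 13 in control (adjusted p = 8.31e-07). Mmp9 fell by 2.26 with BA (adjusted p = 1.73e-12) and by 1.82 with BA+RT (adjusted p = 5.99e-11). In BA+RT against RT 2 of the 5 rose and 1 fell, beside 10.8% of tested genes called. Ctsg rose by 2.04 (adjusted p = 0.0358; 0 to 57 counts in BA+RT) and Prtn3 by 0.78 (adjusted p = 0.0195), and Mmp9 fell by 1.61 (adjusted p = 1.06e-08). In the interaction 1 of the 5 was called, Cybb (-0.59, adjusted p = 0.0445), beside 4.91% of tested genes called lower.

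Of 6 other neutrophil surface genes, 2 rose with BA, 3 rose with RT, and 2 rose and 2 fell with BA+RT, beside the same shares of all tested genes. Selplg, a selectin ligand, rose in all 3 (0.59, 0.64 and 0.65), and Ptafr, the receptor for platelet-activating factor, rose with RT (0.67, adjusted p = 7.53e-05). The Fc receptor gene Fcgr3 and the chemokine receptor gene Cxcr4 fell with BA+RT, by 0.59 and 0.74. The interaction was called for 4 of the 6, all lower: Itgal, Selplg, Fcgr3 and Cxcr4, beside 4.91% of tested genes.

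Markers of mononuclear phagocytes, which also express Itgam and the formyl peptide receptors, were measured beside them. Of 8 tested, 3 rose and 1 fell with BA, 4 rose and 2 fell with RT, and 2 rose and 3 fell with BA+RT. The shares of all tested genes called in either direction were 27%, 41.6% and 47.6%. In the interaction 3 of the 8 were called, all lower, beside 4.91% of tested genes called lower. The members did not move one way: with RT, Cd68 and Adgre1 rose by 0.70 and 0.69 (adjusted p = 1.56e-10 and 2.34e-05), while Csf1r and Ccr2 fell by 0.55 and 0.66 (adjusted p = 4.11e-06 and 4.57e-04). With BA, Csf1r and Ccr2 rose by 0.29 and 0.51 and Adgre1 fell by 0.43. The sum of the 7 on panel 1 was 3920 to 4770 CPM in control, 4270 to 5210 in BA, 3790 to 5420 in RT and 3800 to 4850 in BA+RT, and none was at 0. Ptprc was not called against control in any group, but its interaction was (-0.43, adjusted p = 0.0201). The part of these cells in the values of the 8 genes was not tested.

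Markers of other cells also differed between the groups. Of 8 tested genes of T and natural killer cells, 4 rose with BA, 1 fell with RT and 2 fell with BA+RT, and 7 were lower in BA+RT than in BA. Over all tested genes 12.5% rose with BA, 21.1% fell with RT, 24.2% fell with BA+RT and 26.4% were lower in BA+RT than in BA. The summed levels of the 8 T and natural killer cell genes were 41.9 to 202 CPM in control, 175 to 566 in BA, 25.4 to 158 in RT and 48.0 to 298 in BA+RT. The 2 epithelial genes went opposite ways with radiation: Epcam fell by 0.81 with RT and 0.75 with BA+RT (adjusted p = 2.95e-07 and 8.52e-07), whereas Muc1 rose by 2.32 and 1.86 (adjusted p = 3.41e-10 and 2.08e-08). With BA both fell, by 0.30 and 1.0 (adjusted p = 0.0384 and 0.00119). Of 4 fibroblast genes 4 fell in BA tumours, 2 in RT tumours and 4 in BA+RT tumours, beside 14.5%, 21.1% and 24.2% of all tested genes called lower. The endothelial gene Kdr fell with BA (by 0.39, adjusted p = 0.0148) and with BA+RT (by 0.70, adjusted p = 1.25e-05). Of 2 mast cell and basophil genes Kit fell with RT (by 1.37, adjusted p = 1.69e-07) and with BA+RT (by 1.62, adjusted p = 5.85e-09). The other, Cpa3, had values in the opposite direction without a call (0.25 with RT, adjusted p = 0.633, and 0.82 with BA+RT, adjusted p = 0.0718). The B cell genes had too few counts to be tested. The part of these cells in the results was not tested either.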

How the data were processed

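RNA of 36 tumours was read with 2 targeted amplicon panels (72 libraries). The deposited table holds raw counts per amplicon; the aligner, and whether reads or molecular barcodes were counted, are not given in the sources used. A second deposited table holds log2 values (regularized log) that the authors made with DESeq2, per the submitters' processing notes. The position columns are headed GRCh38, but the 8 amplicons lie inside the named mouse genes on GRCm38. Genomic DNA control rows (10 rows, 2.32e-05% of counts) were left out.

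Counts were tested with edgeR 4.0.16 in R 4.3.3 (robust quasi-likelihood F test, two-sided), each panel fitted with all 4 groups, TMM factors and the default expression filter by group. P values were adjusted by Benjamini-Hochberg over 1038 genes, and each SE was derived from the fold change and its F statistic (|log2 fold change|/√F), with 95% intervals from the t distribution on the residual degrees of freedom. The 7 comparisons were 6 pairs of groups and the interaction. Under TMM a change is relative to the other genes of the panel, not to total RNA. Correlations used log2 CPM (prior count 2), group means removed, with 100000 permutations, adjusted over 28 pairs. Amplicons were compared with transcripts by blastn 2.17.0. On simulated counts for BA against control (1031 genes), 92% of 100 genes changed 2-fold and 100% of 97 changed 4-fold were called, with 6 false calls. Only the BA group was changed there. The rates are averages over genes of all levels, so they do not describe genes with low counts or changes below 2-fold.

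The genes described and the lists were chosen with earlier results of these data known. All 8 genes are described whatever their result; of the ligand, granule, other surface and phagocyte lists, the genes named are those called against control with the largest change, up to 4, and the direct ligands and partner chains. Il1rap and Itgal were also named, outside this rule. Genes named from the lists of other cells were chosen after their values were seen. P values set each difference against the spread between tumours of the same group. The labels name no cage, batch or day of processing, and mouse numbers run in blocks by group. A difference in handling between the groups was therefore not tested. Alternatives were DESeq2 1.42.0, no filter, total-count scaling, reference gene scaling (9 genes a panel), limma 3.58.1 on the deposited log2 values, only the groups compared, and leaving out each mouse. Reference gene factors were first computed from the sum of the 9 genes; their geometric mean was added as a further alternative after the values under the sum had been seen, and both are given.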

Additional observations from a re-analysis of the deposited data

Results flagged for a closer look

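Within single groups of 9 tumours, 7 of 32 combinations of gene and group had 1 tumour far from the others. The rule was a gap to the next tumour above 0.493 of the group's CPM range. Its chance rate of about 1 in 20 assumes normally distributed values, which CPM on a linear scale need not have, and the genes share mice. The number of flags was therefore not compared with chance. Cxcr2 was 17.2 CPM in control mouse 8 (next lowest 32.4) and 48.1 in RT mouse 22 (next highest 32.8). S100a8 was 5920 CPM in BA mouse 13 (next 1990), 4780 in RT mouse 22 (next 2300) and 3230 in BA+RT mouse 45 (next 1470). Il1r2 was 361 CPM in BA+RT mouse 37 (next 246), and Ceacam1 was 60.6 in control mouse 6 (next 40.6).

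RT mouse 22 was the highest of its group for 4 genes (Cxcr2, Csf3r, S100a8 and Il1r2) and the lowest for 2 (Itgam and Ceacam1), and it stood at an end of its group for other lists too. Its summed CPM was the lowest of the RT group for mononuclear phagocyte (3790), granule (823), other neutrophil surface (803) and T and natural killer cell genes (25.4), and the highest for epithelial (9440), fibroblast (831) and endothelial genes (248) and for ligands and partners (4570). Control mouse 8 was the lowest of its group for 5 genes (Cxcr2, Itgam, S100a8, Il1r2 and Ceacam1) and the highest for Fpr2. BA+RT mouse 45 was the highest of its group for Fpr1, Csf3r, S100a8 and Ceacam1.

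By the test of the difference itself, the BA change was not the same with and without radiation for Fpr1 (-1.09 on the log2 scale), Fpr2 (-0.98) and Itgam (-0.65). For Fpr1 that call was lost in 19 of 36 fits without 1 mouse (adjusted p 0.0168 to 0.0764) and on the deposited log2 values.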

How the results depend on the processing

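The count of genes called stayed within 1.5 times its value for BA against control, RT against control, BA+RT against control, BA+RT against BA, BA against RT and the interaction under DESeq2, no filter, total-count scaling, both reference gene scalings, the deposited log2 values and, except for the interaction, only the groups compared. For BA+RT against RT it was 0, and 1 (Csf3r) under DESeq2, the sum and the geometric mean of the reference genes. By rank 2 of the 28 pairs were called in place of 4. Leaving out 1 mouse gave 4 to 7 calls for RT against control (7 without RT mouse 22) and 0 to 1 for BA+RT against RT.

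Reference gene scaling moved the median of all tested genes by more than 0.1 in RT against control (-0.01 to 0.151 with the sum and 0.188 with the geometric mean; higher and lower calls 213 and 219 to 373 and 96, and 422 and 79), BA+RT against control (0.009 to 0.116 and 0.143; 243 and 251 to 342 and 173, and 387 and 157), BA+RT against BA (0.021 to 0.144 and 0.199; 281 and 274 to 404 and 185, and 472 and 147) and BA against RT (-0.004 to -0.183 and -0.246; 265 and 293 to 154 and 473, and 118 and 536). For BA+RT against RT the split went from 38 and 74 to 23 and 89, and 19 and 96, for the interaction from 35 and 51 to 13 and 46, and 22 and 39, and for BA against control from 130 and 150 to 115 and 145, and 99 and 183. The choice between the 2 forms moved 1 call: Cxcr2 in BA against control was called under the geometric mean (-0.43, adjusted p = 0.0402) and not under the sum; it was also called on the deposited log2 values (-0.19, adjusted p = 0.0494). Under the geometric mean, as under the sum, Cxcr2 in BA+RT against control (-0.33) and Csf3r in BA+RT against BA (-0.21) lost their calls and Fpr2 in RT against control (0.55) gained one.

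Signs that turned belonged to uncalled differences. Under the sum and the geometric mean these were Csf3r in RT against control (0.06 and 0.09), Il1r2 in BA+RT against RT (-0.05 and -0.04), Cxcr2 in BA+RT against BA (0.04 and 0.10), Csf3r in BA against RT (-0.12 and -0.18) and S100a8 in BA against RT (-0.07 and -0.15). Il1r2 in BA+RT against RT was also -0.01 on the deposited log2 values and -0.00 under total counts. Leaving out 1 mouse, ranges crossing 0 were Il1r2 in BA against control (-0.17 to 0.01), Fpr1 (-0.02 to 0.21) and Il1r2 (-0.11 to 0.08) in BA+RT against RT, Cxcr2 in BA+RT against BA (-0.16 to 0.00), Cxcr2 (-0.17 to 0.02) and S100a8 (-0.32 to 0.43) in BA against RT, and S100a8 (-0.23 to 0.46) and Il1r2 (-0.01 to 0.19) in the interaction. The cause was not tested.

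The Fpr1 interaction (-1.22 to -0.92) lost its call without control mouse 3, 4, 5, 6 or 9, BA mouse 11, 14, 16, 17 or 18, RT mouse 21, 22, 25 or 27, or BA+RT mouse 37, 38, 41, 42 or 43. No paired analysis was possible because mouse numbers are not shared between groups. A planned comparison with the other panel gave no value, as none of the 8 genes is on both. Depth limits Fpr1 and Cxcr2 most, with as few as 11 and 21 counts in a tumour.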
